A study of Mus musculus with 12 samples.

Results

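The miR-106b-25 and miR-106a-363 clusters are paralogous groups of microRNAs that share seeds with the miR-17-92 cluster. Their members were taken by name from the array's miRNA entries, which gave 6 of the 576 entries. Of these, 4 come from the miR-106b-25 cluster (mmu-miR-106b-5p, mmu-miR-106b-3p, mmu-miR-93-5p and mmu-miR-25-3p) and 2 from the miR-106a-363 cluster (mmu-miR-20b-5p and mmu-miR-106a_v17.0, where v17.0 is a release tag, called miR-106a from here on, with mmu- left out). The filter on dim signals kept 5 of the 6 for testing, and miR-106b-3p did not pass it. The study measured miRNAs in LLC1 cells, a cultured mouse line from Lewis lung carcinoma, after X-ray doses given singly or in fractions. Its 12 Agilent 1-colour arrays form 4 groups of 3 biological replicates: fractionated 5x2 Gy, which adds up to 10 Gy, untreated control, a single dose of 2 Gy and a single dose of 10 Gy. RNA of the irradiated cells was taken 4 h after treatment. All groups share the line and its medium, no label names separate flasks or days, and a p-value therefore measures the spread between these arrays only.

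A mature miRNA finds its targets mainly through its seed, bases 2 to 8 from the 5′ end. miRNAs with the miR-17 seed are known to repress the cell cycle inhibitor Cdkn1a (p21), a main product of p53 activation, as well as E2F1. miR-25 and miR-92a share another seed, and the pro-apoptotic Bcl2l11 (Bim) is a known target of both. The miR-106b-25 hairpins lie in an intron of Mcm7, which encodes a subunit of the replicative helicase and is known as an E2F target. The miR-106a-363 cluster lies on the X chromosome beside the noncoding gene Kis2, where retroviral insertions in mouse T cell leukaemias activate it, and most adult tissues are known to hold little of it.

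The mature sequences show how closely the members resemble each other and their relatives in the miR-17-92 cluster, which bears on what a hybridisation probe can separate. They are RefSeq sequences of build GRCm38.p6, written 5′ to 3′ with the seed in capitals, and all 6 members matched by name (the miR-106a entry as miR-106a-5p and the miR-17 entry, also tagged v17.0, as miR-17-5p). The first 4 are members with the miR-17 seed, the next 2 are their relatives of miR-17-92 on chromosome 14, and then come miR-25-3p with its relative miR-92a-3p, and miR-106b-3p.
miR-106b-5p (chr5:138165787-138165807, minus strand): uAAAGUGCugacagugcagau
miR-93-5p (chr5:138165574-138165596, minus strand): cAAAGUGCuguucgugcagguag
miR-106a-5p (chrX:52742541-52742563, minus strand): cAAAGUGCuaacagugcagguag
miR-20b-5p (chrX:52742159-52742181, minus strand): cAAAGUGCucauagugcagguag
miR-17-5p (chr14:115043684-115043706, plus strand): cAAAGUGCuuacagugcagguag
miR-20a-5p (chr14:115044183-115044205, plus strand): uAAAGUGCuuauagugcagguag
miR-25-3p (chr5:138165332-138165353, minus strand): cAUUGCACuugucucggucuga
miR-92a-3p (chr14:115044476-115044496, plus strand, with a second copy on chromosome X): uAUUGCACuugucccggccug
miR-106b-3p (chr5:138165746-138165767, minus strand): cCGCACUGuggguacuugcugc

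With positions counted from 1 at the 5′ end and the first miRNA's base written first, miR-106b-5p and miR-106a differ by U1C, G10A and A20G over 21 shared positions. The pair miR-93-5p and miR-20b-5p differs by G10C, U11A and C13A over 23 positions. Within the clusters, miR-106b-5p and miR-93-5p differ at 5 positions, and miR-106a and miR-20b-5p differ at 2, A10C and C12U. miR-106a differs from miR-17 by A10U alone, and miR-20b-5p differs from miR-20a-5p by C1U and C10U. miR-25-3p differs from miR-92a-3p by C1U, U14C and U18C over 21 positions. Whether a probe for one of these miRNAs also bound another was not tested.

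The 3 hairpins of the miR-106b-25 cluster (Mir106b, Mir93 and Mir25, in that order along the minus strand) fill 498 bases of chromosome 5 (chr5:138165321-138165818), all inside Mcm7. The 6 hairpins of the miR-106a-363 cluster (Mir106a, Mir18b, Mir20b, Mir19b-2, Mir92-2 and Mir363) fill 875 bases of chromosome X (chrX:52741693-52742567, minus strand). Because the Mcm7 hairpins are carried in the host's transcript, its start region is shown, from 250 bases before to 50 after an annotated start, with matches to the E2F motif TTTNNCGC on either strand in capitals.
Mcm7 (chr5:138171834-138172133, minus strand): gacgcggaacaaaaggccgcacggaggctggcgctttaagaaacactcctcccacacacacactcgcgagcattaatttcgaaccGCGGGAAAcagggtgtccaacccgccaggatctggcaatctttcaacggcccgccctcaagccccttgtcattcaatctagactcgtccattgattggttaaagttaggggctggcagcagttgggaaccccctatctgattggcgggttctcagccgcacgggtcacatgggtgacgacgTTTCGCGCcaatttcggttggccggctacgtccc
This window holds 2 matches, and 5.17% of the 32851 promoter windows of the same length in the RefSeq table hold at least 1. The window of the other annotated Mcm7 start and that of Kis2 hold 0. A match says only that these letters are present, and the study did not measure Mcm7 or Kis2 transcripts.

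Levels are given as log2 of the processed signal after division by the array's own 75th percentile among consistently detected probes, so 0 is the level of a bright probe and values under it are dimmer. The floor was -4.06. A level belongs to its own probes, so levels are compared between groups and never between miRNAs. Arrays differed widely in brightness: the percentile used for scaling ran from 110.5 to 1102, and 48 to 137 miRNAs were detected per array. The 3 arrays of 5x2 Gy had the highest brightness (1004, 1088 and 1102), and all 3 lay on the second of 2 slides with 1 of the 10 Gy arrays, whereas every control and 2 Gy array lay on the first. For 5x2 Gy against control, slide and treatment therefore cannot be told apart except through the 10 Gy group. No marker set defines LLC1 cells on this array, so lists of other cell types are only described. On any array, 0 of 5 epithelial miRNAs (the miR-200 family), 2 of 6 blood cell miRNAs and 4 of 5 fibroblast and mesenchymal ones were detected. The summed level of the fibroblast list was 1.07 to 1.14 after 5x2 Gy, 0.67 to 0.95 in control, 0.80 to 1.07 after 2 Gy and 0.98 to 1.14 after 10 Gy. That of the blood list, with miR-223-3p, miR-451a, miR-144-3p and miR-150-5p at the floor, was -0.50 to -0.19 after 5x2 Gy and -0.47 to -0.02 in control. It was -0.21 to -0.10 after 2 Gy and -0.51 to -0.17 after 10 Gy. The summed level of 6 entries often traced to rRNA, tRNA or GC-rich sequence was 2.71 to 2.95 after 5x2 Gy, 3.13 to 3.92 in control, 2.71 to 3.02 after 2 Gy and 2.51 to 2.73 after 10 Gy. In 5x2 Gy against control, miR-199a-5p (0.33 higher, limma adjusted p = 0.0103) and miR-214-3p (0.46, 0.0407) of the fibroblast list passed the test. Its other tested entries, miR-199a-3p (0.35, limma adjusted p = 0.114) and miR-143-3p (0.17, 0.154), did not pass. Neither did the blood list's miR-142a-3p and miR-142a-5p. Of all tested miRNAs 12.7% passed there. Whether the cell types of these lists had a part in the results was not tested.

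After 5x2 Gy, miR-25-3p was the only member that passed the test: it was 0.40 higher than in control on the log2 scale, a 1.32-fold difference. It passed in 9 of 18 other settings and in 6 of 12 fits without 1 array. Its change was not tested against those of the other members. The other members of the Mcm7 cluster, miR-106b-5p and miR-93-5p, lay above every control array but did not pass the test, and the X-linked members miR-20b-5p and miR-106a overlapped control. After the single doses no member passed. All tests of 1 miRNA are limma's moderated test over the 118 tested miRNAs with Benjamini-Hochberg adjustment at 0.05, n = 3 arrays a group.

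**Figure D1:**
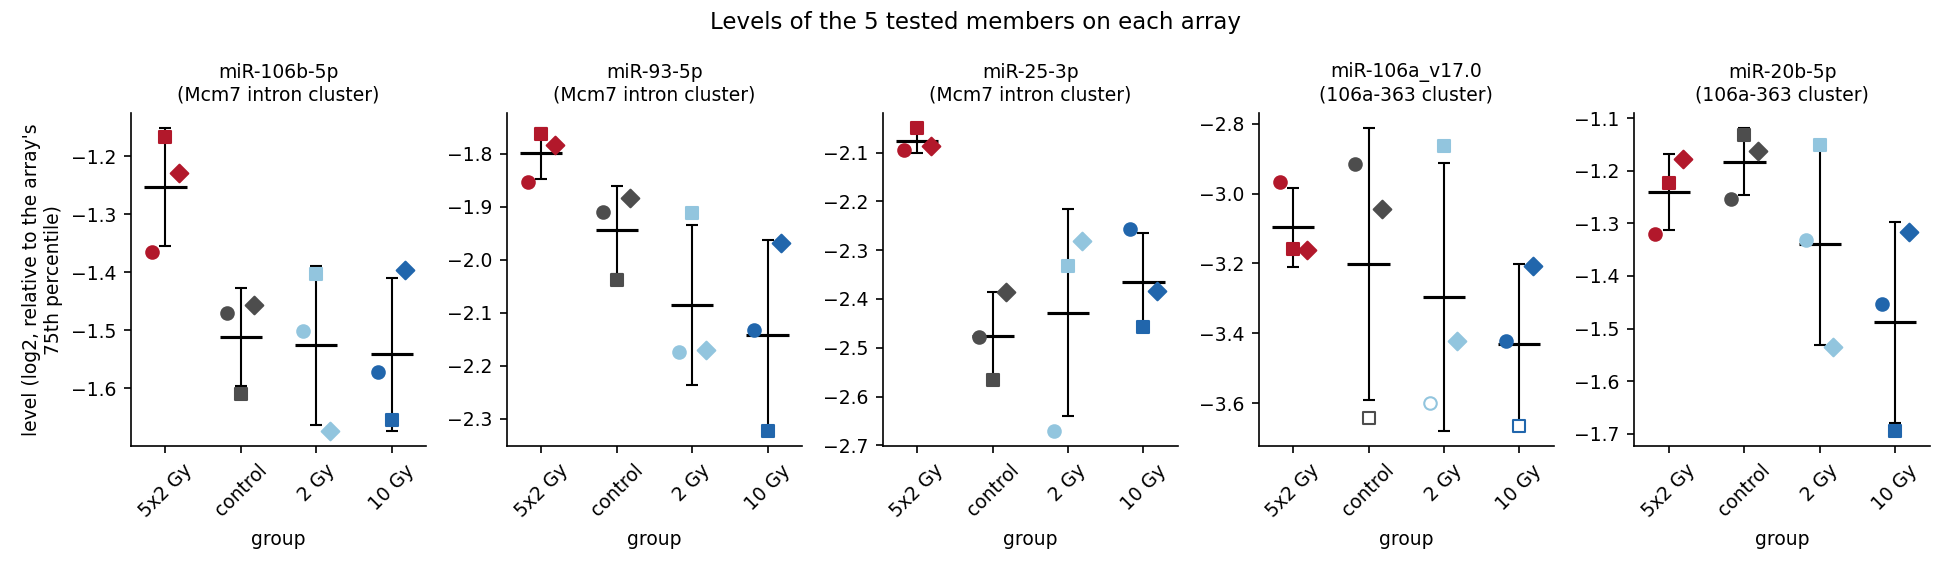
Level of each tested member on each array (log2, relative to the array's 75th percentile) by group, with circles, squares and diamonds for replicates 1, 2 and 3, open symbols where the miRNA was not detected, and lines and bars for the mean and SD. The 3 arrays of 5x2 Gy lie above all 9 other arrays for miR-106b-5p, miR-93-5p and miR-25-3p, and not for miR-106a or miR-20b-5p.

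miR-25-3p, the last hairpin of the Mcm7 cluster, had levels of -2.09, -2.05 and -2.09 on the 5x2 Gy arrays. The dose series began with -2.48, -2.57 and -2.38 in control, went on with -2.67, -2.33 and -2.28 after 2 Gy and ended with -2.26, -2.46 and -2.38 after 10 Gy. Every 5x2 Gy array was above every other array, and the single-dose groups overlapped control. The group means were -2.08 ± 0.024 after 5x2 Gy, -2.48 ± 0.091 in control, -2.43 ± 0.21 after 2 Gy and -2.37 ± 0.10 after 10 Gy (SD, n = 3 each), so 5x2 Gy stood first, followed by 10 Gy, 2 Gy and control, and the last 3 did not differ beyond their spread. The difference between 5x2 Gy and control was 0.40 (SE 0.10, 95% interval 0.17 to 0.63, adjusted p = 0.0379, limma). Against 10 Gy it was 0.29 (interval 0.060 to 0.52, adjusted p = 0.229), which did not pass. Both of its probes were higher after 5x2 Gy than in control. The dimmer, detected on 8 of 12 arrays, was higher by 0.48 and the brighter, detected on 12, by 0.32. Against 10 Gy the dimmer probe, which was at the floor on 1 array, was higher by 0.45 and the brighter by only 0.13. With the brighter probe alone the call stood (adjusted p = 0.0178).

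The call on miR-25-3p depended on how arrays were scaled and which were used. Without 1 array at a time the change ran from 0.35 to 0.45, and the call was lost without control replicate 1 (adjusted p = 0.0962), control replicate 2 (0.0733), 10 Gy replicate 2 (0.0587) or any 5x2 Gy replicate (0.0992, 0.110 and 0.125). With median scaling the change was 0.18 (adjusted p = 0.408, limma) and with quantile normalization 0.37 (0.108). With array brightness as a covariate it was 0.28 (adjusted p = 0.156), with slide as a block it was 0.43 (0.328), with the mean level of the rRNA, tRNA and GC-rich entries as a covariate it was 0.47 (0.0168), and with normexp background correction it was -0.34 or -0.066 (offsets 50 and 1). Over all 30 alternatives the limma adjusted p ran from 0.00553 to 0.752. On the second slide, where 3 arrays of 5x2 Gy met 1 of 10 Gy, the miR-25-3p mean after 5x2 Gy was 0.31 above the lone 10 Gy array, a comparison chosen after seeing the data and without the spread of the 10 Gy group.

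**Figure D2:**
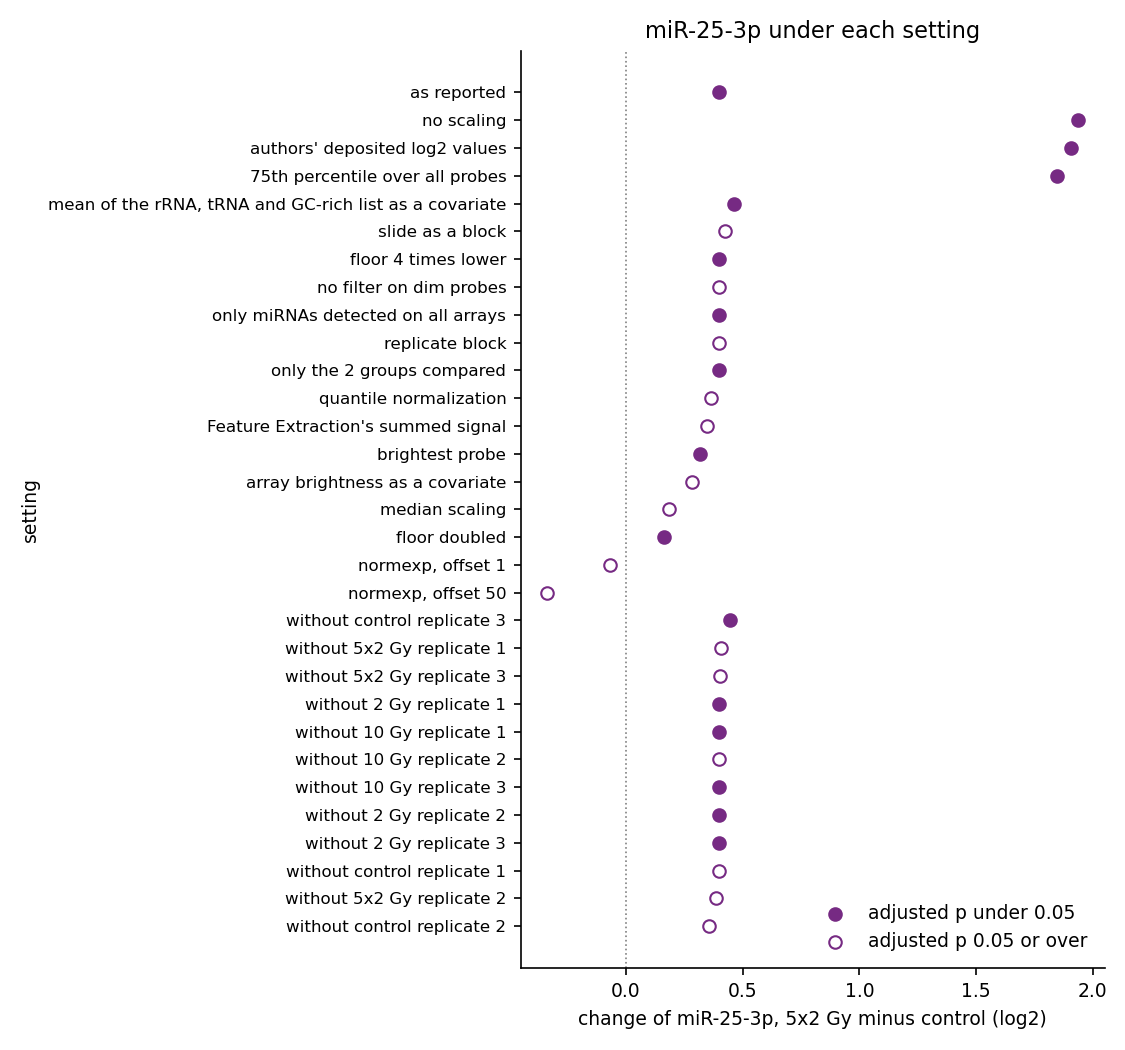
Change of miR-25-3p, 5x2 Gy minus control (log2, horizontal axis), under each setting (rows), with filled points where the limma adjusted p was under 0.05. The change is 0.40 as reported, about as large in most settings, above 1.8 where arrays were not brought to a common brightness over detected probes, and below 0 with normexp.

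miR-106b-5p, the first hairpin of the cluster and a carrier of the miR-17 seed, had levels of -1.36, -1.17 and -1.23 after 5x2 Gy. In the dose series it had -1.47, -1.61 and -1.46 in control, -1.50, -1.40 and -1.67 after 2 Gy, and -1.57, -1.65 and -1.40 after 10 Gy. The 5x2 Gy arrays were again above all others, while the other 3 groups overlapped each other. Group means were -1.25 ± 0.10 after 5x2 Gy, -1.51 ± 0.084 in control, -1.53 ± 0.14 after 2 Gy and -1.54 ± 0.13 after 10 Gy, and the order below 5x2 Gy was within the spread. The difference of 0.26 between 5x2 Gy and control (interval 0.049 to 0.47) had an unadjusted p of 0.0214 in the limma fit and an adjusted p of 0.114. Its probes were higher by 0.26 and 0.25.

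miR-93-5p, the middle hairpin, has the same seed. Its levels were -1.85, -1.76 and -1.78 after 5x2 Gy, and in the dose series -1.91, -2.04 and -1.88 in control, -2.17, -1.91 and -2.17 after 2 Gy, and -2.13, -2.32 and -1.97 after 10 Gy. The 5x2 Gy arrays were highest by a small margin over control, and the order of means ran from 5x2 Gy (-1.80 ± 0.048) through control (-1.94 ± 0.082) and 2 Gy (-2.08 ± 0.15) to 10 Gy (-2.14 ± 0.18), with the last 2 inside each other's spread. The difference from control was 0.14 after 5x2 Gy (interval -0.084 to 0.37, adjusted p = 0.368, limma). With slide as a block it was -0.12, and with brightness as a covariate -0.068. After 10 Gy it was -0.20 (interval -0.43 to 0.031, adjusted p = 0.291, limma), and with brightness as a covariate -0.27 with an adjusted p of 0.0269.

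miR-106b-3p, the opposite arm of the miR-106b hairpin, was at or near the floor throughout. Its 4 probes gave mean processed signals of -0.0323 to 5.73 per array, and by the spot rule it was detected on 1 array, 5x2 Gy replicate 2. The scanner software's own gene flag marked it as detected on 6 arrays, all 3 of 5x2 Gy, 1 of 2 Gy and 2 of 10 Gy, and on 0 control arrays. The 3 of 5x2 Gy, 2 Gy replicate 2 (brightness 897) and 10 Gy replicate 3 (867) were brighter than every array without the flag. The other was 10 Gy replicate 2 (307). Whether the flag followed brightness was not tested. No fold change was computed, since by the spot rule at most 1 array of a group detected miR-106b-3p. The other arm of the miR-93 hairpin, miR-93-3p, was detected on 0 arrays.

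The X-linked cluster gave no such separation from control. miR-20b-5p had levels of -1.32, -1.22 and -1.18 after 5x2 Gy, and in the dose series -1.25, -1.13 and -1.16 in control, -1.33, -1.15 and -1.53 after 2 Gy, and -1.45, -1.69 and -1.32 after 10 Gy. Control was highest on average (-1.18 ± 0.064), next to 5x2 Gy (-1.24 ± 0.072) and 2 Gy (-1.34 ± 0.19), which overlapped it, and 10 Gy was lowest (-1.49 ± 0.19), below every control array. The difference from control was -0.31 after 10 Gy (interval -0.57 to -0.044), with an unadjusted p of 0.027 and an adjusted p of 0.236 in the limma fit, which did not pass. After 5x2 Gy it was -0.06 (interval -0.32 to 0.20, adjusted p = 0.917, limma), and its probes gave -0.12 and 0.01. Within the first slide alone, 10 Gy minus control was -0.39.

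miR-106a was detected on 9 of 12 arrays, whereas the other 4 tested members were detected on all 12. It entered the test through 5x2 Gy alone, the group with 3 of 3 arrays detected, against 2 of 3 in each other group, and its mean was highest there. It had levels of -2.97, -3.16 and -3.16 after 5x2 Gy, and in the dose series -2.92, -3.64 and -3.04 in control, -3.60, -2.86 and -3.42 after 2 Gy, and -3.42, -3.67 and -3.21 after 10 Gy. The 3 arrays without detection were control replicate 2, 2 Gy replicate 1 and 10 Gy replicate 2, whose brightness of 110.5, 316 and 307 was the lowest of the 12. Control and each single-dose group held 1 such array, and the means of -3.10 ± 0.11 after 5x2 Gy, -3.20 ± 0.39 in control, -3.30 ± 0.38 after 2 Gy and -3.43 ± 0.23 after 10 Gy did not differ beyond their spread. The change after 5x2 Gy was 0.10 with an interval of -0.44 to 0.65 (adjusted p = 0.934, limma), and without control replicate 2 it was -0.12. The wide interval leaves a change as large as that of miR-25-3p within its bounds.

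**Figure D3:**
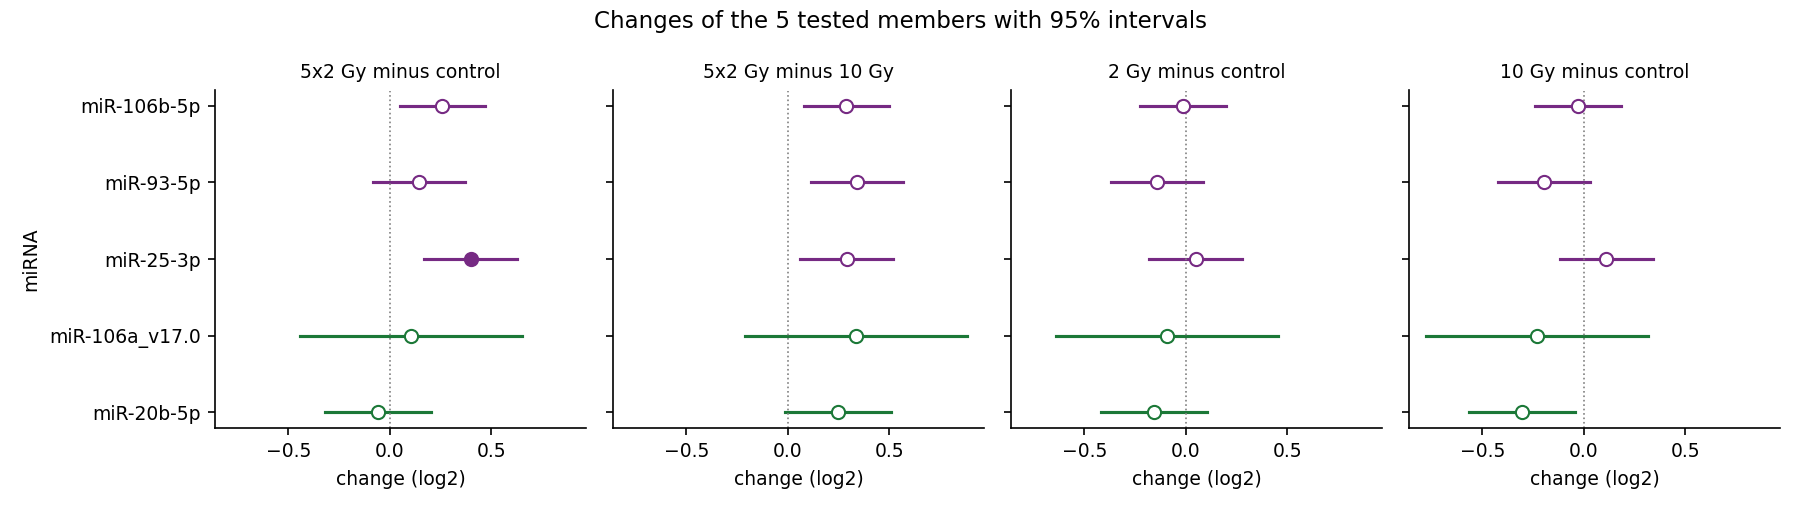
Change of each tested member (log2, horizontal axis) with its 95% interval in 4 comparisons, purple for the Mcm7 cluster and green for the X-linked cluster, filled where the limma adjusted p was under 0.05. Only miR-25-3p in 5x2 Gy minus control is filled, and the intervals of miR-106a are the widest.

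Set against all tested miRNAs, 1 of 5 members was called in 5x2 Gy against control, where 12.7% of all tested miRNAs were called, all of them higher. In that comparison 3 of 5 members lay wholly above control, the 3 of the Mcm7 cluster, against 28% of all tested miRNAs, and 0 of 5 lay wholly below, against 5.08%. These shares include miRNAs at the floor on some arrays, where none of the 5 members was. The median change of the 5 was 0.14, of the 3 Mcm7 members 0.26 and of the 2 X-linked members 0.02, beside 0.00 over all tested miRNAs and 0.17 over the 71 that stayed above the floor on all arrays. The change of miR-25-3p ranked 13th from the top of 118 and that of miR-106b-5p 25th.

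Single doses gave no calls among the members. After 2 Gy, 0 of 5 were called, as were 0% of all tested miRNAs (11 of the 118 had an unadjusted p under 0.05 and 0 of these were members), and the members' changes ran from -0.16 to 0.05 with 4 of 5 below 0. No member lay wholly above or below control after 2 Gy, against 4.24% and 2.54% of all tested miRNAs. After 10 Gy, 0 of 5 were called against 0.847% of all tested miRNAs, and changes ran from -0.31 to 0.11 with 4 of 5 below 0. In the limma fit 24 of the 118 tested miRNAs had an unadjusted p under 0.05, and 1 member (miR-20b-5p) was among them. That member was also the only 1 of 5 wholly below control, where 6.78% of all tested miRNAs were, and 0 of 5 lay wholly above, against 8.47%. miR-25-3p was the member with a positive change after both single doses, 0.05 and 0.11, with intervals that included 0 (-0.18 to 0.28 and -0.12 to 0.34). The signs of these small changes are relative to the scaling. With no scaling the median change of the 71 miRNAs above the floor shifted by 0.46 after 2 Gy and 0.48 after 10 Gy, and with the authors' deposited log2 values by 0.40 and 0.51, and miR-106b-5p, miR-93-5p and miR-20b-5p then had positive changes after both doses.

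The total dose of 10 Gy was given in 5 fractions or at once, and this comparison shares the 5x2 Gy arrays with the one above. All 5 tested members had higher means after 5x2 Gy than after 10 Gy, although miR-106a was tested only because 5x2 Gy detected it on all arrays. The differences were 0.29 for miR-106b-5p, 0.34 for miR-93-5p, 0.29 for miR-25-3p, 0.34 for miR-106a and 0.25 for miR-20b-5p. None of the 5 passed (limma adjusted p of 0.192, 0.165, 0.229, 0.576 and 0.354), where 2.54% of all tested miRNAs were called. In the limma fit 3 of 5 members and 18 of the 118 tested miRNAs had an unadjusted p under 0.05. The groups did not overlap for the 3 Mcm7 members and for miR-106a, against 25.4% of all tested miRNAs. The separation of miR-106a is no support, since its detection after 5x2 Gy put it in the test. The share of 25.4% includes miRNAs at the floor on some arrays and was not computed for those above it. The median change was 0.29 for the members, 0.03 for all tested miRNAs and 0.13 for those above the floor. Within the second slide the 5 differences were 0.14, 0.17, 0.31, 0.11 and 0.08, so those of the 4 members other than miR-25-3p were smaller against the 1 bright 10 Gy array. In the F test over the 4 groups 0 of 5 were called, against 5.93% of all tested miRNAs. There the 3 Mcm7 members had an unadjusted p under 0.05 in the limma fit (adjusted p of 0.213, 0.196 and 0.134). So had 22 of all 118 tested miRNAs, the 3 included.

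The paralogous pairs were compared as differences between their levels on the same array. For miR-93-5p minus miR-20b-5p these were -0.53, -0.54 and -0.61 after 5x2 Gy. Along the dose series they were -0.66, -0.91 and -0.72 in control, -0.84, -0.76 and -0.63 after 2 Gy, and -0.68, -0.63 and -0.65 after 10 Gy. The 5x2 Gy arrays lay above every other array, and control, 2 Gy and 10 Gy overlapped. The group means were -0.56 ± 0.040 after 5x2 Gy, -0.76 ± 0.13 in control, -0.75 ± 0.10 after 2 Gy and -0.65 ± 0.026 after 10 Gy (SD, n = 3 each). The exact permutation test over all 15400 assignments of the 12 arrays to 4 groups gave p = 0.0666, or 0.133 adjusted over the 2 pairs, so the difference across groups did not pass. Between 5x2 Gy and control the shift was 0.20, and the exact two-sided permutation test gave p = 0.1, which is the lower limit for groups of 3. On the second slide alone the 5x2 Gy mean of -0.56 stood beside -0.65 on the lone 10 Gy array.

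For miR-106b-5p minus miR-106a the differences were 1.60, 1.99 and 1.93 after 5x2 Gy. They were 1.45, 2.03 and 1.59 in control, 2.10, 1.46 and 1.75 after 2 Gy, and 1.85, 2.01 and 1.81 after 10 Gy. All 4 groups overlapped, with means of 1.84 ± 0.21 after 5x2 Gy, 1.69 ± 0.31 in control, 1.77 ± 0.32 after 2 Gy and 1.89 ± 0.11 after 10 Gy. The exact permutation test gave p = 0.759 (adjusted 0.759). The highest array of control, of 2 Gy and of 10 Gy were the 3 on which miR-106a was not detected. By these tests no difference between the paralogous clusters was detected across the groups. With 3 arrays a group the exact permutation p of a single contrast cannot fall below 0.1. No shift of any size could therefore pass there.

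**Figure D4:**
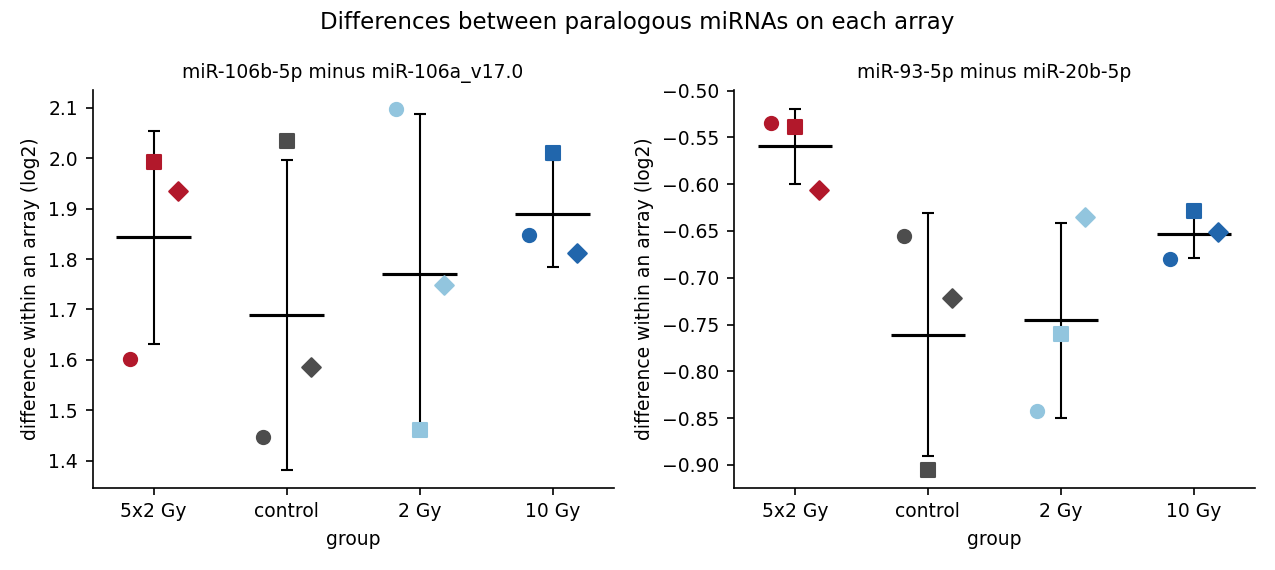
Difference between the levels of 2 paralogous miRNAs on the same array (log2, vertical axis) by group, with symbols for replicates 1 to 3 and lines and bars for mean and SD. For miR-93-5p minus miR-20b-5p the 5x2 Gy arrays lie between -0.61 and -0.53, above the 9 others, and for miR-106b-5p minus miR-106a the groups overlap.

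The third paralogous cluster, miR-17-92, gave the nearest comparison. Of 11 listed products 9 were on the array and 6 were tested, and 0 of the 6 were called in any comparison (limma). For 5x2 Gy against control 0 of 6 had an unadjusted p under 0.05 in the limma fit, against 36 of all 118 tested miRNAs. Their median change was -0.10 after 5x2 Gy, with 5 of 6 below 0, and -0.30 after 10 Gy, with 6 of 6 below 0, both against control. By seed, 7 RefSeq miRNAs carry the miR-17 seed, of which 6 were on the array and all 6 were tested. After 5x2 Gy their changes from control were 0.26 for miR-106b-5p, 0.14 for miR-93-5p, 0.13 for miR-17, 0.10 for miR-106a, -0.06 for miR-20b-5p and -0.08 for miR-20a-5p, and 0 of 6 passed. Like miR-106a, miR-17 entered the test through 5x2 Gy alone, with 3 of 3 arrays detected there and 2 of 3 in each other group. Its control levels were -2.74, -3.56 and -2.82, and control replicate 2, the lowest, was without detection. The miR-25 seed is carried by 6 RefSeq miRNAs, all on the array, of which miR-32-5p, miR-92b-3p, miR-363-3p and miR-367-3p were detected on 0 arrays.

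For miR-25-3p, the seed relative with signal was miR-92a-3p. miR-92a-3p, encoded in both the miR-17-92 and the miR-106a-363 clusters, had levels of -0.90, -1.07 and -1.01 after 5x2 Gy, and along the dose series -0.78, -0.99 and -0.85 in control, -1.28, -1.14 and -1.13 after 2 Gy, and -1.11, -1.24 and -1.13 after 10 Gy. All 6 single-dose arrays were below all control arrays, against 2.54% of all tested miRNAs after 2 Gy and 6.78% after 10 Gy. Its change was -0.31 after 2 Gy and -0.29 after 10 Gy (limma unadjusted p of 0.00171 and 0.00250, adjusted p of 0.142 and 0.103), and -0.12 after 5x2 Gy (adjusted p = 0.279), each against control. None of the 3 passed, and the difference between the changes of the 2 miRNAs was not tested.

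The other products of the X-linked cluster added little. Of 8 further names, 5 were on the array and 1 was tested: miR-18b-5p, miR-20b-3p, miR-92a-2-5p and miR-363-3p were detected on 0 arrays. The tested one, miR-19b-3p, is made from hairpins in both the miR-106a-363 and the miR-17-92 cluster, so its signal cannot be assigned to either. Its change was -0.15 after 5x2 Gy, -0.22 after 2 Gy and -0.39 after 10 Gy against control, with limma adjusted p of 0.580, 0.640 and 0.236.

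Across the 12 arrays, levels within the Mcm7 cluster went together most closely for miR-106b-5p and miR-93-5p (r = 0.88), and less for miR-25-3p with either (0.63 and 0.60). The X-linked miR-106a and miR-20b-5p had r = 0.53, below that of miR-93-5p with miR-20b-5p (0.79) or with miR-106a (0.78), and miR-25-3p with miR-20b-5p had 0.08. These values are descriptions over 12 arrays that share groups and scaling. Among the 71 tested miRNAs above the floor on all arrays, leaving out the members, the 3 with patterns most like each member by Pearson's r were as follows. miR-106b-5p was most like miR-26a-5p (0.90), miR-16-5p (0.90) and miR-103-3p (0.90), and miR-93-5p most like miR-31-5p (0.94), miR-16-5p (0.91) and miR-18a-5p (0.86). miR-25-3p was most like miR-30b-5p (0.92), miR-26a-5p (0.89) and miR-29c-3p (0.83). miR-20b-5p was most like miR-19b-3p (0.90), miR-19a-3p (0.89) and miR-20a-5p (0.88), of which the last 2 are miR-17-92 products and miR-19b-3p comes from both clusters. miR-106a was most like miR-17 (0.96), which differs from it at 1 base and was undetected on the same 3 arrays, then miR-690 (0.95), an entry of the rRNA, tRNA and GC-rich list, and miR-31-5p (0.86).

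**Figure D5:**
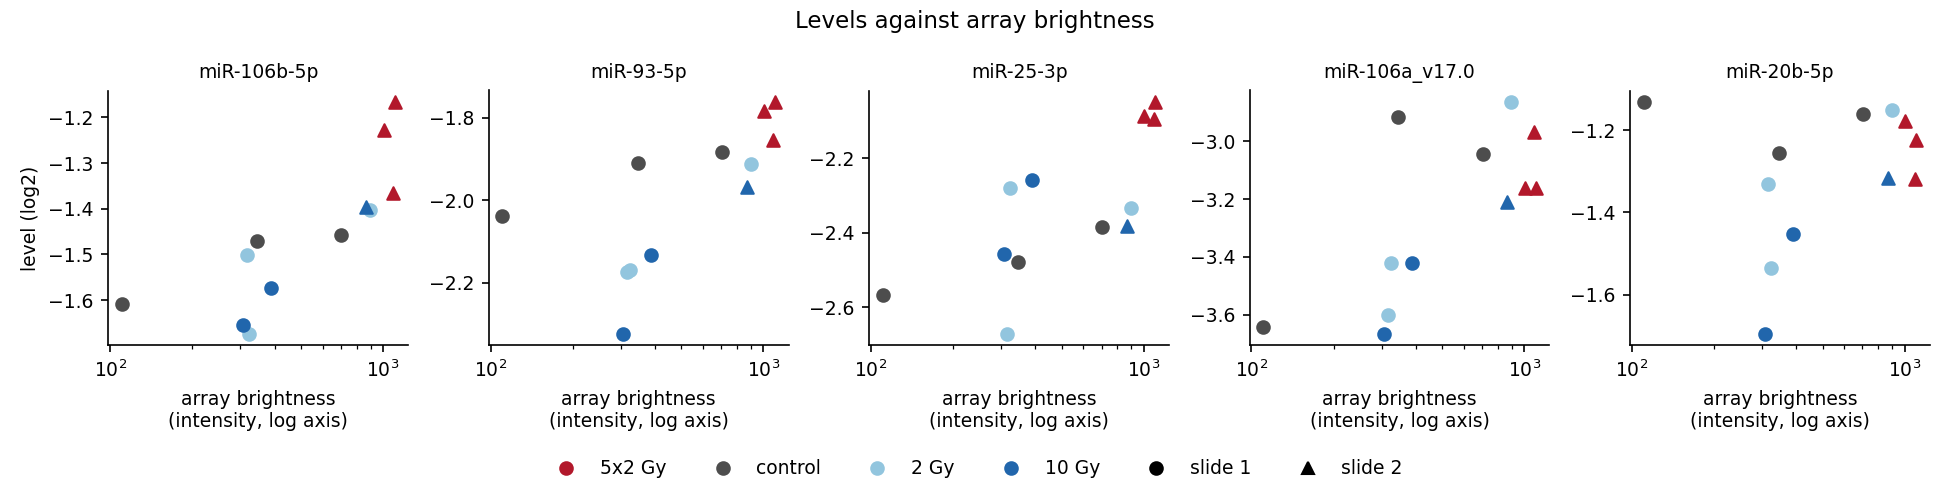
Level of each tested member (log2, vertical axis) against array brightness (the intensity used for scaling, log axis), coloured by group, with circles for slide 1 and triangles for slide 2. The 5x2 Gy arrays are the brightest 3, and the circles alone gave r = 0.66 for miR-106b-5p.

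Scaled levels of 4 of the 5 members were correlated with the brightness of the array, as the plot of level against brightness shows. The relation was not computed for the other tested miRNAs, so the count of 4 is not a trait shown to be particular to the members. The permutations ignored group and the 3 brightest arrays were those of 5x2 Gy, so their p-values do not separate brightness from treatment. Over 12 arrays Pearson's r with log2 brightness was 0.81 for miR-106b-5p, 0.68 for miR-93-5p, 0.73 for miR-25-3p, 0.72 for miR-106a and 0.25 for miR-20b-5p (permutation p of 0.0015, 0.0158, 0.00673, 0.00838 and 0.435, adjusted over the 5 relations 0.0075, 0.0197, 0.014, 0.014 and 0.435). Spearman's rho was 0.91, 0.84, 0.82, 0.71 and 0.27 in the same order (permutation p of 0.00014, 0.0012, 0.00188, 0.0116 and 0.408, adjusted 0.0007, 0.003, 0.00313, 0.0145 and 0.408). After removal of the pair of arrays with the most extreme brightness (farthest from the median), r became 0.84, 0.82, 0.64, 0.68 and 0.66. Within the 8 arrays of the first slide, which holds no 5x2 Gy array, r was 0.66, 0.41, 0.50, 0.73 and 0.12, and the 4 arrays of the second slide were too few. With brightness as a covariate, 0 of 5 members passed in 5x2 Gy against control, where 28 of the 118 tested miRNAs were called, against 15 without it.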

How the data were processed

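Spot intensity values were deposited as the scanner software wrote them, with Agilent Feature Extraction 10.7.3.1 named in the submitters' processing notes. The processed signal is background-subtracted and the design build is mm9, per the file headers. The 0 or 1 flags for control, outlier and well above background, other values in the deposited files, served as filters. The log2 values in the authors' deposited table equal the log2 of the same signals (signals under 1 set to 1) plus 1 shift per array, within 1e-04, and were used as an alternative.

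Control and outlier spots (2.04 to 4.95% of the rest) were dropped and the remaining spots averaged by probe. Signals were scaled to the array's 75th percentile among the 78 probes detected throughout, floored at 0.0598 of that value and put on a log2 scale. Detection required over 0.5 of a probe's spots well above background. The mean of the probes detected on at least 3 arrays gave the level of a miRNA, and detection on all arrays of 1 or more groups admitted 118 of 576 to testing. The fit used limma 3.58.1 (R 4.3.3) on all 12 arrays, with 8 residual and 0.45 prior degrees of freedom, two-sided tests and Benjamini-Hochberg adjustment within each comparison; it was tested on simulated data. Permutation tests were run with numpy 2.4.6 and scipy 1.17.1. The number of arrays limits the precision.

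The members and lists were chosen with earlier results of these data known. Named miRNAs are the 6 members, other products of their clusters and of miR-17-92, carriers of a member's seed, and the 3 tested miRNAs most similar in pattern to each member. Alternatives covered scaling, background correction, floors, filters, covariates, blocks and leaving out each array. With no mean signal column in the files, normexp took the median signal. The labels do not state a pairing by replicate number, and the reported fit used none. Sequences come from RefSeq tables of GRCm38.p6, and none of their coordinates was set against the array's build.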

Additional observations from a re-analysis of the deposited data

How the results depend on the processing

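Results were recomputed under 20 other settings, of which the summed signal of Feature Extraction and the second slide alone were chosen after seeing the data, and without each of the 12 arrays. Of the values from the 20 settings 286 kept their direction and side of the threshold, 62 changed sign, whether or not they also crossed the threshold, and with the sign kept 16 newly passed and 7 no longer passed. The cause was not tested for any of them. The 3 arrays on which miR-106a was not detected were the 3 dimmest. Slide and treatment cannot be told apart for 5x2 Gy against control.

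The number of members called in 5x2 Gy against control (1 as reported) was 5 with the percentile over all probes, 3 with no scaling, the authors' deposited log2 values or the rRNA, tRNA and GC-rich covariate, and 0 with median scaling, quantile normalization, normexp at either offset, no filter on dim probes, the slide block, the brightness covariate or the summed signal. For 5x2 Gy against 10 Gy (0 as reported) it was 5 with all probes and 1 on the second slide alone (a fit with 1 array of 10 Gy and 2 residual degrees of freedom, which does not hold that group's spread), for 10 Gy against control 1 with the brightness covariate, and in the F test 3 with all probes. Leaving out 1 array gave 0 to 1 for 5x2 Gy against control and 0 to 1 in the F test (1 without 2 Gy replicate 1). Called miRNAs of all tested ranged from 1 (slide block) to 102 (all probes) for 5x2 Gy against control (15 as reported; 86 with no scaling, 84 with the authors' values, 41 with the rRNA covariate, 28 with brightness, 25 with the lower floor, 7 with quantile, 7 with the floor doubled, 6 with no filter or only fully detected miRNAs, 5 and 2 with normexp at offsets 1 and 50, and 4 with median scaling), from 0 to 90 against 10 Gy, from 0 to 26 for 10 Gy and from 0 to 6 for 2 Gy against control, and from 1 to 86 in the F test. The median change of the 71 miRNAs above the floor, 0.17 as reported for 5x2 Gy against control, shifted by 1.51 with all probes, -0.22 with median scaling, 1.63 with no scaling, 1.47 with the authors' values, -0.47 with normexp at offset 50 and -0.26 at offset 1. The paralogue test of miR-93-5p and miR-20b-5p passed with all probes (exact permutation p = 0.0230, adjusted 0.0460) and quantile normalization (p = 0.0107, adjusted 0.0214), and its p ran from 0.0399 to 0.158 when 1 array was left out. It passed in no other setting, with exact permutation p of 0.702 and 0.661 with normexp at offsets 50 and 1. With no scaling p was 0.228 and with the summed signal 0.185. For miR-106b-5p and miR-106a the exact permutation p ran from 0.0488 to 0.983 over the alternatives, and the lowest adjusted p was 0.0770.

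Changes with the opposite sign are given against control unless stated. For 2 and 10 Gy, no scaling shifted the median of the 71 miRNAs by 0.46 and 0.48, the authors' values by 0.40 and 0.51, and all probes by 0.14 and 0.43, so the signs of small changes under these settings hold that shift. With all probes, miR-106b-5p was 0.16 after 2 Gy and 0.46 after 10 Gy, miR-93-5p 0.22 after 10 Gy, and miR-20b-5p 1.58 after 5x2 Gy, 0.018 after 2 Gy and 0.19 after 10 Gy. With no scaling, miR-106b-5p was 0.54 and 0.58, miR-93-5p 0.28 and 0.28, and miR-20b-5p 0.43 and 0.34 after 2 and 10 Gy, and miR-20b-5p 1.77 after 5x2 Gy. With the authors' values these were 0.38 and 0.47, 0.26 and 0.29, 0.22 and 0.18, and 1.38, and miR-106a was 0.39 and 0.38. With quantile normalization, miR-106b-5p was 0.035 and 0.024, miR-106a 0.23 and 0.14 after 2 and 10 Gy, and miR-93-5p 0.0095 after 2 Gy. With the summed signal, miR-106b-5p was 0.028 and 0.035 and miR-106a 0.93 and 0.52. With the rRNA covariate they were 0.078 and 0.083, and 0.31 and 0.26. With median scaling, miR-93-5p was -0.071 and miR-106a -0.11 after 5x2 Gy, and miR-25-3p -0.011 after 2 Gy. With normexp at offset 1, miR-93-5p was -0.15, miR-25-3p -0.066 and miR-106a -0.44 after 5x2 Gy, miR-25-3p -0.14 after 2 Gy and -0.083 after 10 Gy, and miR-106a -0.091 for 5x2 Gy against 10 Gy. At offset 50, miR-106b-5p was -0.10, miR-93-5p -0.35, miR-25-3p -0.34 and miR-106a -0.73 after 5x2 Gy, miR-25-3p -0.19 after 2 Gy and -0.14 after 10 Gy, and against 10 Gy miR-93-5p was -0.054, miR-25-3p -0.19 and miR-106a -0.32. With brightness, miR-93-5p was -0.068 and miR-106a -0.44 after 5x2 Gy, and miR-106a -0.014 against 10 Gy. With the slide block they were -0.12 and -0.23. With the brightest probe, miR-106b-5p was 0.0036 after 10 Gy and miR-20b-5p 0.0069 after 5x2 Gy. With the floor doubled, miR-106a was 0.011 after 2 Gy and -0.023 after 5x2 Gy. Leaving out 1 array gave ranges that crossed 0 for miR-106b-5p (-0.076 to 0.060 after 2 Gy, -0.10 to 0.027 after 10 Gy), miR-106a (-0.32 to 0.058 after 2 Gy, -0.12 to 0.25 after 5x2 Gy) and miR-25-3p (-0.026 to 0.17 after 2 Gy).

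The labels do not state whether replicate numbers pair the samples. In their deviations from group means, same-numbered arrays had correlations of -0.88 to 0.73, with 6 of 18 over 0.1. Differently numbered arrays of different groups had -0.71 to 0.85, a like range, so these values do not settle it. With the replicate number as a block, 0 members and 10 of all tested miRNAs were called in 5x2 Gy against control (miR-25-3p adjusted p = 0.0699, limma), and the paralogue tests gave exact permutation p of 0.790 and 0.125.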
